A study of Mus musculus with 8 samples.

Results

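Interferon-stimulated genes are the genes that cells switch on when interferon is bound at their surface, and 33 of them were measured here in reperfused mouse myocardium. The list named 36 genes by symbol, and a gene was taken where a probe set of the array carried that symbol alone, with the probe set of highest mean used for Irf1, the only gene with more than 1. Isg15 and Gbp2 were annotated only on probe sets shared with another gene, and Ifi44 was not in the annotation used here, so these 3 genes have no value in what follows. The 33 genes stand among 19938 genes with a single symbol.

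Mice of the DJ-1 group received recombinant DJ-1 protein, and mice of the placebo group received phosphate-buffered saline, in both cases 1 hour before ligation. In both groups the left anterior descending coronary artery was occluded for 45 minutes and then reopened for 2 hours before the heart was taken, so every animal had ischaemia and reperfusion and no unoperated heart was analysed here. All 8 samples (4 DJ-1, 4 placebo) came from male mice 8 to 10 weeks old and 25 to 30 g in weight, of the strain given as CH3, and 1 array was run for each. DJ-1 is a redox-sensitive protein encoded by Park7. The comparison asks how the reperfused transcriptome differs after DJ-1 pre-treatment.

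Interferons are secreted when a cell detects foreign or misplaced nucleic acid, and type I interferons can also be made in infarcted heart by macrophages that take up DNA of dying cells. Type I interferon acts through a receptor pair that activates the kinases Jak1 and Tyk2, and these activate a complex with Stat2 and Irf9 that binds the interferon-stimulated response element in promoters. Interferon gamma acts through another receptor, and many of its target promoters carry the gamma-activated sequence. The induced genes encode nucleic acid sensors, transcription factors that amplify the response, proteins that block viral RNA and budding, chemokines that draw T cells, and parts of the antigen presentation machinery.

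Both elements could be looked for in the promoter windows that RefSeq gives for build GRCm38.p6 (250 bases before and 50 after a transcript start), which were at hand for 27 of the 36 listed genes. The core of the response element, GAAA, any 2 bases and GAAA again, on either strand, stood in a window of 14 of these 27 genes (51.9%), against 1079 of all 27025 genes with a window (3.99%, or 1131 of 32851 windows). The core of the gamma-activated sequence, TTCNNNGAA, which reads the same on both strands, stood in 6 of the 27 (22.2%), against 2582 of all genes (9.55%). Matches of the response element can overlap each other, as in Isg15, which held 3 between -78 and -57, counted in bases from the transcript start. A match describes these letters and does not show that a factor binds there. The 250 bases before the start are shown for the 5 genes that hold a match there and are described on all arrays below: Rsad2 (chr12:26456453-26456702, minus strand), Oas3 (chr5:120777660-120777909, minus strand), Cxcl10 (chr5:92348890-92349139, minus strand), Ifit3 (chr19:34583279-34583528, plus strand) and Irf1 (chr11:53769764-53770013, plus strand). Each is written 5′ to 3′ on its own strand, and capitals mark the motif matches.
Rsad2: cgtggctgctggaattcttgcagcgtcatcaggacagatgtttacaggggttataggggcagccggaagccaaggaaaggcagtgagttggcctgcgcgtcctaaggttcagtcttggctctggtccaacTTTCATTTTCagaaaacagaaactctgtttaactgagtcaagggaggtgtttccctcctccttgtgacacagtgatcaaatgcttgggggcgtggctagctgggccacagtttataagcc
Oas3: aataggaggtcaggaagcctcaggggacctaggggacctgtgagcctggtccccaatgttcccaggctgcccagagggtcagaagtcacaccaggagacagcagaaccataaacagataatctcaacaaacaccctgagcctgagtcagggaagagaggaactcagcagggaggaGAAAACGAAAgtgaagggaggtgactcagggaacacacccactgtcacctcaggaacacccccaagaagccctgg
Cxcl10: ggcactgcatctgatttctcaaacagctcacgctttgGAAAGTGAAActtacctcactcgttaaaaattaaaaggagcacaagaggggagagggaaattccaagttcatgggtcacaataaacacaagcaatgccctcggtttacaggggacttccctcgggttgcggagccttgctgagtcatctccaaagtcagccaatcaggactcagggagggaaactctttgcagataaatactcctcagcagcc
Ifit3: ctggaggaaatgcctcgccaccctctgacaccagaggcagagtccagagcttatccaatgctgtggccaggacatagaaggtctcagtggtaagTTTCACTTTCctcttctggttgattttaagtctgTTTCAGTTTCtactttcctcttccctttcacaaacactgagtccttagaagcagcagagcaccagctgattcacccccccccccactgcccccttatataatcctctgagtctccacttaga
Irf1: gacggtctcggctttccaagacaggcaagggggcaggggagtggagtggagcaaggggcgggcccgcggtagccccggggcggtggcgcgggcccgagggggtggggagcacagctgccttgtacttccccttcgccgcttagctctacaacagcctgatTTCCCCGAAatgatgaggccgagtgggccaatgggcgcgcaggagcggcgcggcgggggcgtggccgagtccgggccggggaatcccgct
The capitals mark a response element core in the first 4 sequences, at -120 to -111 in Rsad2, -75 to -66 in Oas3, -213 to -204 in Cxcl10, and at -156 to -147 and -122 to -113 in Ifit3. In Irf1 they mark a gamma-activated core at -90 to -82. After the start, response element cores lay at 33 to 42 in Ifih1, 3 to 12 in Ddx58 and 19 to 28 in Eif2ak2. A gamma-activated core lay after the start at 8 to 16 in Ifi35.

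**Figure D1:**
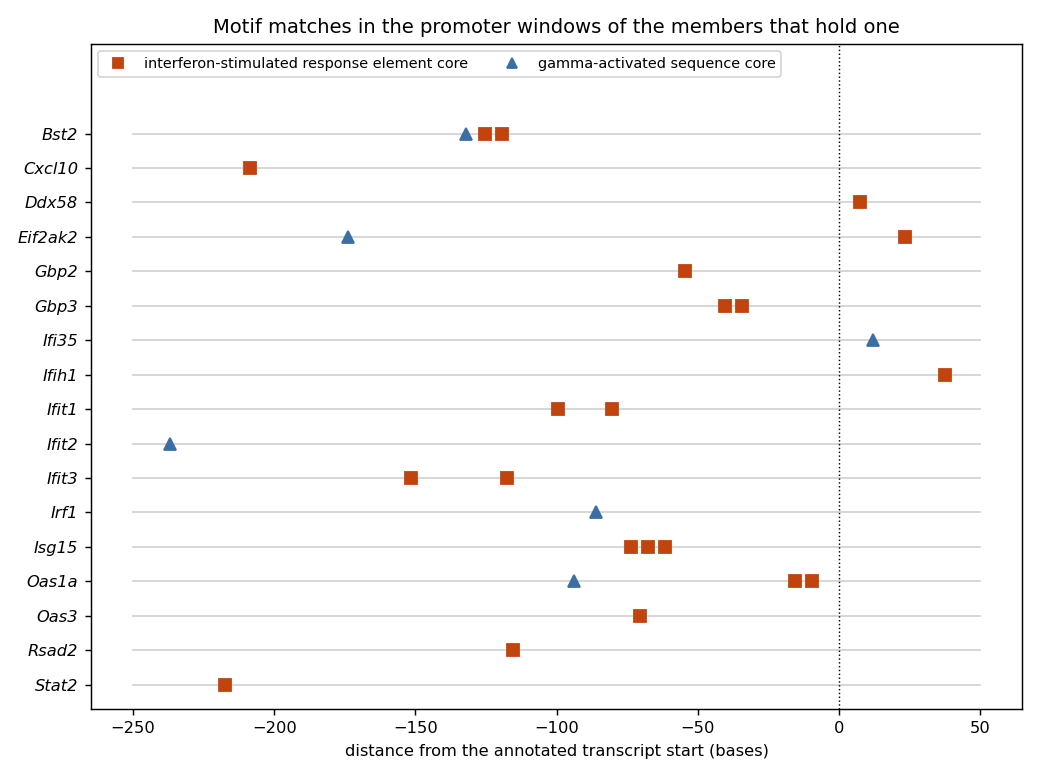
Positions of motif matches in the promoter windows of the 17 listed genes that hold one, with distance from the annotated transcript start in bases on the horizontal axis and 1 gene per row. Squares are response element cores and triangles gamma-activated cores, and the squares farthest from the start are those of Stat2 and Cxcl10, both well before it.

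The arrays held log2 expression values with medians of 5.25 to 5.35, and correlations between arrays ran from 0.978 to 0.987. For the tissue label, all 10 ventricular cardiomyocyte genes lay far above background, at mean levels of 11.33 to 13.86. Background was set at 4.74, the 95th percentile of 1027 olfactory receptor genes, and 31 of the 33 interferon-stimulated genes lay above it, with only Mx1 and Mx2 below. DJ-1 replicates 3 and 4 stood apart on the first principal component of all genes, with scores of 19.6 and 23.5, while the remaining 6 arrays scored -15.0 to 5.31, so values without them are given beside or after the values with them. Sample codes number the DJ-1 hearts after the placebo hearts; should that have been the processing order, treatment cannot be told apart from batch.

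No interferon-stimulated gene differed between DJ-1 and placebo hearts beyond the spread between hearts. In the limma comparison 0 of the 33 passed an adjusted p of 0.05 (adjusted p from 0.824 to 0.996), where 0% of all genes passed (0 of 19938). An unadjusted p under 0.05 was likewise reached by 0 of the 33, where 5.99% of all genes reached it, and for 0 of the 33 did the 4 DJ-1 values all lie to one side of the 4 placebo values, where 3.22% of all genes showed this. The mean was higher in DJ-1 hearts for 24 of the 33 (72.7%), compared with 45.4% of the 13693 genes above background and 52.5% of all genes; with each array centred on its median it was 20 of the 33. The median difference, DJ-1 minus placebo, was 0.07 on the log2 scale, against -0.01 for genes above background and 0.01 for all genes. With 1 array left out the median was 0.03 when this was placebo replicate 3, DJ-1 replicate 1 or DJ-1 replicate 2, 0.04 for placebo replicate 4, 0.13 for placebo replicate 2 and 0.14 for DJ-1 replicate 4. The number with a higher mean then ran from 17, with DJ-1 replicate 2 left out, to 27, with DJ-1 replicate 4 left out.

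Single differences ran from -0.22 for Mx2 to 0.58 for Cxcl10, and only Cxcl10 reached 0.5 in size. For 24 of the 33 genes the 95% confidence interval lay wholly between -0.5 and 0.5, so larger differences lay outside the interval there. Intervals of the other 9 reached past that range: those of Rsad2, Cxcl10, Ifit1, Irf1 and Oas2 on the higher side, those of Ifit3, Parp9, Mx2 and Dhx58 on the lower side, and that of Irf1 on both. Hearts of one group also differed more for these genes than for most: the median SD within groups was 0.23 for the 33 genes and 0.15 for all genes above background.

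**Figure D2:**
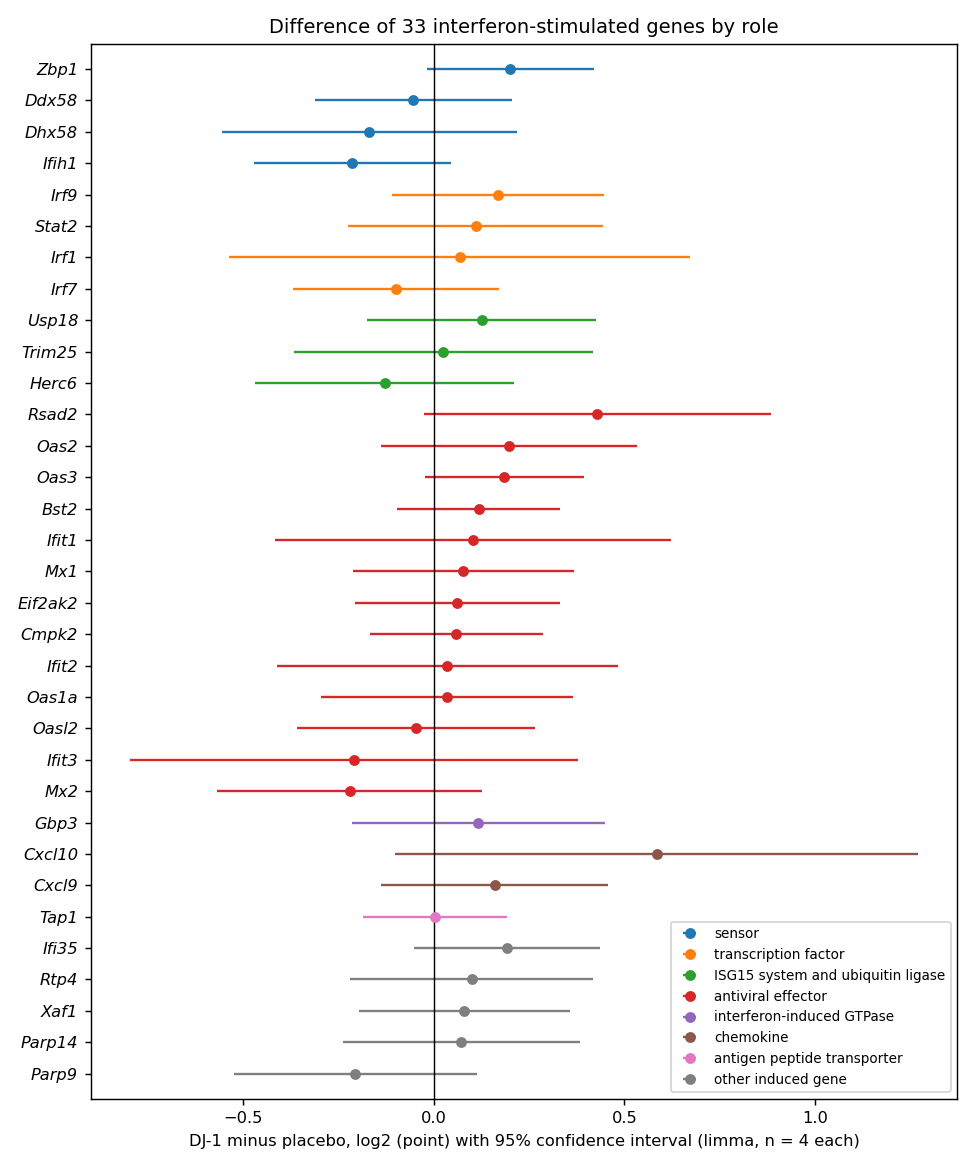
DJ-1 minus placebo difference in log2 units (horizontal axis) of the 33 genes, ordered by role from top to bottom, as a point with its 95% confidence interval from limma (n = 4 each). Every interval includes 0, and only the point of Cxcl10 lies beyond 0.5.

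Among the sensors of nucleic acid, 1 of 4 had a higher mean with DJ-1 and 3 a lower one. Ifih1 encodes MDA5, a cytoplasmic sensor of long double-stranded RNA, and its log2 values were 6.17, 6.14, 6.22 and 6.01 in DJ-1 replicates 1 to 4, against 6.32, 6.66, 6.13 and 6.28 in placebo replicates 1 to 4. The DJ-1 values were close together and lay within the lower end of the placebo range except replicate 4, which was below it; the difference was -0.21 (SE 0.12, 95% interval -0.47 to 0.04). Its sign held under every alternative tried, from -0.34 to -0.11. Ddx58, which encodes the RNA sensor RIG-I, was at 7.55, 7.47, 7.43 and 7.07 in DJ-1 replicates 1 to 4, against 7.33, 7.60, 7.40 and 7.39 in placebo replicates 1 to 4. DJ-1 replicate 4 was the lowest of the 8 and the other 7 lay close together. The difference was -0.05 (SE 0.12) with all arrays and turned to 0.05 with that heart left out.

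Zbp1, a sensor of Z-form nucleic acid that can start necroptosis, was at 5.32, 4.98, 5.05 and 5.25 in DJ-1 replicates 1 to 4, against 4.93, 4.89, 4.999 and 4.97 in placebo replicates 1 to 4. DJ-1 replicates 1, 3 and 4 were above every placebo heart and replicate 2 was not, with a difference of 0.20 (SE 0.10) at a level near background. Dhx58, an RNA helicase related to both RNA sensors, ranged from 4.36 to 5.05 in DJ-1 hearts and 4.53 to 5.19 in placebo hearts, around the background level, and the difference was -0.17 (95% interval -0.56 to 0.22).

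Of the 4 transcription factors, 3 had a higher mean with DJ-1. Irf9, the DNA-binding subunit of the type I interferon complex, was at 7.49, 7.56, 7.12 and 7.15 in DJ-1 replicates 1 to 4, against 7.09, 7.39, 7.12 and 7.04 in placebo replicates 1 to 4. DJ-1 replicates 1 and 2 were above all placebo hearts, DJ-1 replicates 3 and 4 were not, and the difference was 0.17 (SE 0.13). Stat2, its partner, showed the same division, with 7.38 and 7.35 in DJ-1 replicates 1 and 2, 7.05 and 6.72 in DJ-1 replicates 3 and 4, and 6.85 to 7.22 in placebo hearts; its difference was 0.11 (SE 0.15). With DJ-1 replicates 3 and 4 left out and all placebo hearts kept, the differences were 0.36 for Irf9 and 0.35 for Stat2.

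Irf1, which is induced by interferon gamma and by NF-kappaB signalling, was at 8.33, 8.72, 7.38 and 8.12 in DJ-1 replicates 1 to 4, against 8.08, 8.72, 7.72 and 7.76 in placebo replicates 1 to 4. It varied over 1.34 log2 units and was about equally high in replicate 2 of both groups, and the groups overlapped widely. Its mean was 8.14 ± 0.56 in DJ-1 hearts and 8.07 ± 0.46 in placebo hearts (SD, n = 4 each), a difference of 0.07 with a 95% interval of -0.54 to 0.67. Irf7, the factor that amplifies type I interferon production, ranged from 5.78 to 6.23 in DJ-1 hearts and 5.95 to 6.30 in placebo hearts, with a difference of -0.10 (95% interval -0.37 to 0.17).

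In the ISG15 system, in which a ubiquitin-like protein is attached to other proteins, 3 of 4 genes were measured and none stood out. Usp18, the protease that removes ISG15 and also damps the type I receptor, differed by 0.13 (95% interval -0.17 to 0.43). Herc6, the ISG15 ligase of the mouse, differed by -0.13 (95% interval -0.47 to 0.21). Trim25, a ubiquitin ligase that acts on RIG-I, was at 7.63, 7.43, 7.03 and 6.91 in DJ-1 replicates 1 to 4, against 7.48, 7.46, 6.996 and 6.96 in placebo replicates 1 to 4. Replicates 1 and 2 were higher than replicates 3 and 4 in both groups, and the difference between the groups was 0.03 (SE 0.18).

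The antiviral effectors formed the largest class, and 10 of 13 had a higher mean with DJ-1. Rsad2 encodes viperin, an enzyme that makes a chain-terminating nucleotide, and was at 7.74, 7.39, 7.65 and 6.77 in DJ-1 replicates 1 to 4, against 7.21, 7.19, 6.60 and 6.83 in placebo replicates 1 to 4. 3 of the 4 DJ-1 values were above every placebo value, DJ-1 replicate 4 was among the lower ones, and the difference was 0.43 (SE 0.21, 95% interval -0.03 to 0.88, adjusted p = 0.824). Across all alternatives it was highest with DJ-1 replicate 4 left out, at 0.63, and lowest with placebo replicate 3 left out, at 0.31. Cmpk2, a mitochondrial nucleotide kinase gene next to Rsad2 on chromosome 12, differed by 0.06 (95% interval -0.17 to 0.29).

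Ifit1, Ifit2 and Ifit3, neighbouring genes on chromosome 19 whose products bind viral RNA, had their highest value in DJ-1 replicate 1 and their lowest in DJ-1 replicate 4. Ifit3 was at 7.19, 6.38, 6.79 and 5.64 in DJ-1 replicates 1 to 4, against 6.37, 6.96, 6.75 and 6.76 in placebo replicates 1 to 4. The 4 DJ-1 hearts enclosed the whole placebo range, and the means were 6.50 ± 0.66 in DJ-1 hearts and 6.71 ± 0.25 in placebo hearts (SD, n = 4 each). Ifit1 was at 6.76 in DJ-1 replicate 1 and 5.67 in DJ-1 replicate 4, and at 5.81 to 6.74 in placebo hearts. Ifit2 was at 6.34 and 5.33 in the same 2 DJ-1 hearts and at 5.58 to 6.16 in placebo hearts. Differences were -0.21 for Ifit3, 0.10 for Ifit1 and 0.04 for Ifit2 (SE 0.27, 0.24 and 0.20), and each changed sign under some alternative.

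The oligoadenylate synthetase family makes the second messenger that activates RNase L. Oas3 was at 5.11, 4.88, 4.84 and 5.04 in DJ-1 replicates 1 to 4, against 4.75, 4.89, 4.75 and 4.75 in placebo replicates 1 to 4. DJ-1 replicates 1 and 4 were above all placebo hearts, replicates 2 and 3 were not, and all values lay close to background (difference 0.18, SE 0.10). Oas2 ranged from 6.47 to 6.998 in DJ-1 hearts and 6.30 to 6.94 in placebo hearts, with a difference of 0.20 (95% interval -0.14 to 0.53). Oas1a differed by 0.04 (95% interval -0.30 to 0.37) and the synthetase-like gene Oasl2 by -0.05 (95% interval -0.36 to 0.26).

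The remaining effectors gave small differences. Eif2ak2, which encodes the RNA-activated kinase PKR, differed by 0.06 (95% interval -0.21 to 0.33), and Bst2, the tetherin that holds budding virus at the membrane, by 0.12 (95% interval -0.10 to 0.33). Mx2, a dynamin-like GTPase gene, was at 4.33, 4.60, 4.04 and 4.001 in DJ-1 replicates 1 to 4, against 4.61, 4.72, 4.38 and 4.14 in placebo replicates 1 to 4. These values lay at background, 2 DJ-1 hearts were below every placebo heart, and the difference was -0.22 (SE 0.16). Mx1, whose coding sequence is disrupted in many inbred mouse strains, was also at background and differed by 0.08 (95% interval -0.21 to 0.37).

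**Figure D3:**
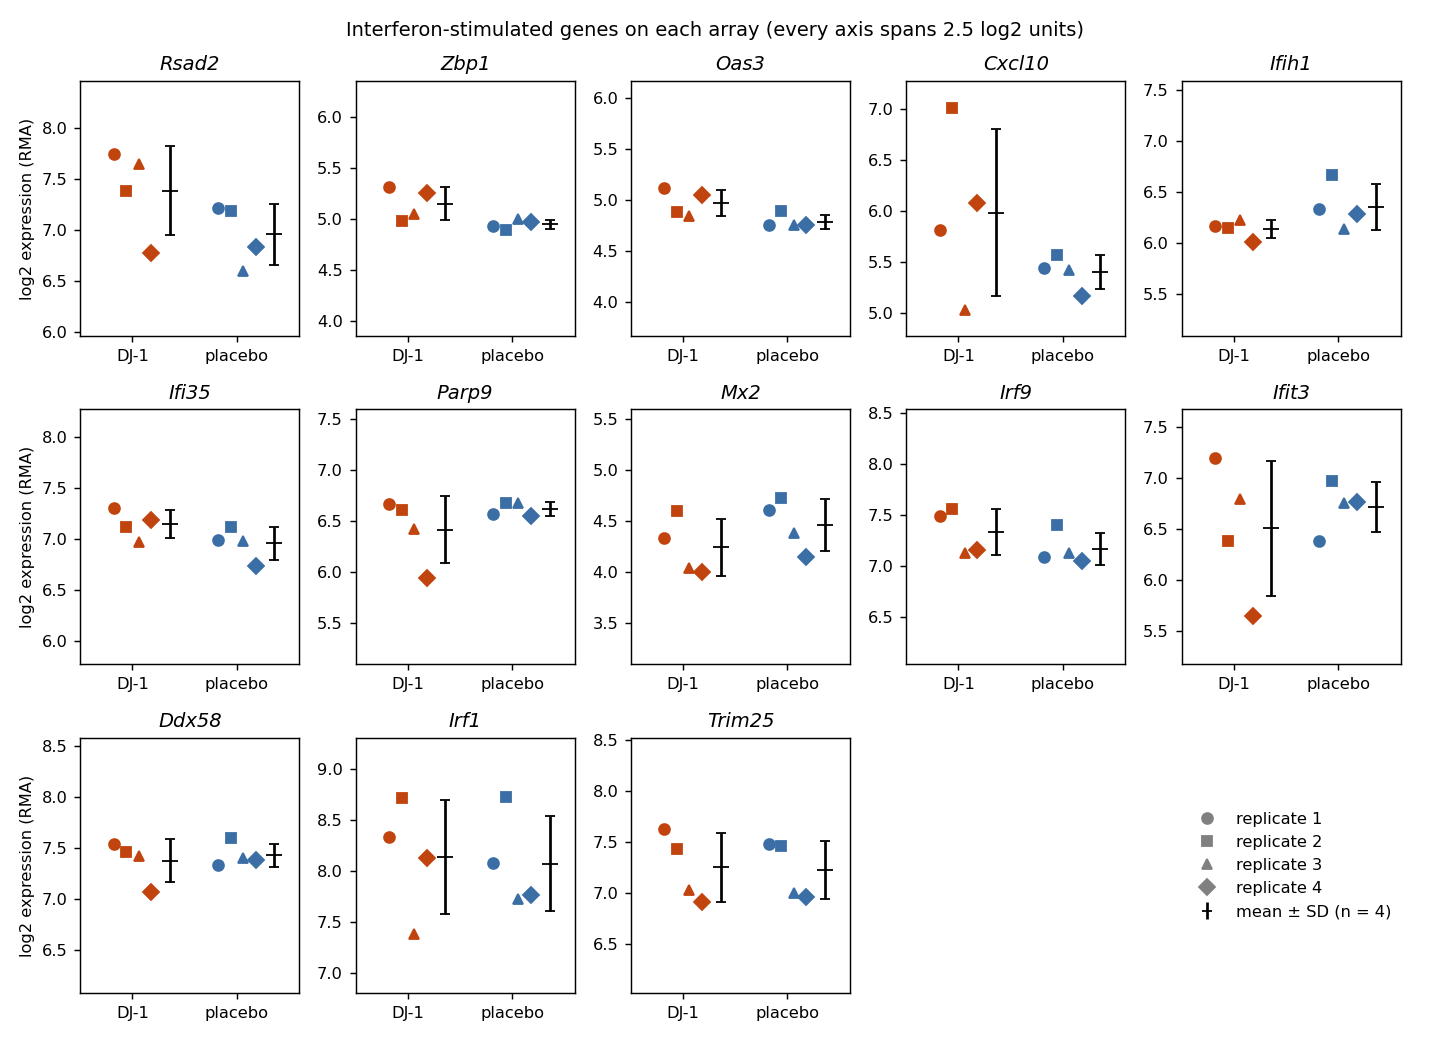
Log2 expression (vertical axes, each spanning 2.5 log2 units) of the 13 genes described on all arrays, with DJ-1 hearts on the left and placebo hearts on the right of each panel, a marker shape for each replicate number, and mean ± SD (n = 4) in black. The groups overlap in every panel, and the spread among DJ-1 hearts is widest for Cxcl10 and Ifit3.

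Both chemokines, ligands of the receptor Cxcr3 on activated T cells, had a higher mean with DJ-1. Cxcl10 was at 5.81, 7.01, 5.03 and 6.08 in DJ-1 replicates 1 to 4, against 5.44, 5.57, 5.42 and 5.17 in placebo replicates 1 to 4. It varied most of all 33 genes, over 1.98 log2 units, and both the highest and the lowest value were in DJ-1 hearts: replicates 1, 2 and 4 were above every placebo heart and replicate 3 was below all of them. The means were 5.98 ± 0.82 in DJ-1 hearts and 5.40 ± 0.17 in placebo hearts (SD, n = 4 each), with a difference of 0.58 (95% interval -0.10 to 1.27, adjusted p = 0.824). Leaving out DJ-1 replicate 2 brought the difference to 0.24, leaving out DJ-1 replicate 3 to 0.90, and leaving out both DJ-1 replicates 3 and 4, with all placebo hearts kept, to 1.01. Cxcl9, the chemokine gene most dependent on interferon gamma, was highest and lowest in the same hearts, at 6.39 in DJ-1 replicate 2 and 5.71 in DJ-1 replicate 3 against 5.78 to 5.98 in placebo hearts. Its difference was 0.16 (95% interval -0.14 to 0.46).

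The other measured genes had no value set apart by treatment. Gbp3, a guanylate-binding GTPase of cell-autonomous immunity, differed by 0.12 (95% interval -0.21 to 0.45). Tap1, a subunit of the transporter that brings peptides to MHC class I, was the steadiest of the 33, at 6.15 to 6.35 in DJ-1 hearts and 6.23 to 6.29 in placebo hearts (difference 0.00343, 95% interval -0.18 to 0.19). Ifi35 was at 7.31, 7.12, 6.97 and 7.19 in DJ-1 replicates 1 to 4, against 6.99, 7.12, 6.98 and 6.73 in placebo replicates 1 to 4. DJ-1 replicates 1, 2 and 4 were above the highest placebo heart, replicate 2 by less than the rounding, and the difference was 0.19 (SE 0.11). Parp9, an ADP-ribosyltransferase that promotes interferon signalling, was at 6.67, 6.61, 6.43 and 5.95 in DJ-1 replicates 1 to 4, against 6.57, 6.68, 6.68 and 6.55 in placebo replicates 1 to 4. DJ-1 replicate 4 was the lowest of the 8 hearts, and the difference was -0.21 (SE 0.15) with all arrays and -0.05 without that replicate. Its family member Parp14 differed by 0.07, the receptor transporter gene Rtp4 by 0.10 and the XIAP-associated gene Xaf1 by 0.08.

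Most of the 33 genes were above their own mean in 3 hearts, 2 given DJ-1 and 1 given placebo. Each gene's values were set against its own mean over the 8 arrays, and the number of genes above their mean was 26, 22, 13 and 10 on DJ-1 replicates 1 to 4, against 12, 26, 9 and 9 on placebo replicates 1 to 4. Genes were thus mostly above their mean in DJ-1 replicates 1 and 2 and placebo replicate 2, and mostly below it in the other 5 hearts. For all genes above background the share above their mean ran only from 45.4% to 54.5% across the arrays. The mean deviation of the 33 genes was 0.18, 0.13, -0.03 and -0.16 on DJ-1 replicates 1 to 4, against -0.05, 0.12, -0.08 and -0.12 on placebo replicates 1 to 4. DJ-1 replicate 1 held the highest value of 13 genes (39.4%, against 12.6% of all genes above background), DJ-1 replicate 2 of 7 genes (21.2%, against 8.84%) and placebo replicate 2 of 6 genes (18.2%, against 11.3%). The lowest value fell in DJ-1 replicate 4 for 13 genes (39.4%, against 19.7%). The 13 antiviral effectors had a mean deviation of 0.25, 0.09, 0.05 and -0.25 on DJ-1 replicates 1 to 4, against -0.04, 0.10, -0.08 and -0.11 on placebo replicates 1 to 4. The 4 transcription factors had 0.20, 0.23, -0.18 and -0.13 on DJ-1 replicates 1 to 4, against -0.04, 0.26, -0.19 and -0.15 on placebo replicates 1 to 4. The 4 sensors had mean deviations of -0.08 to 0.08, in which single genes offset each other. In DJ-1 replicate 1 and placebo replicate 2, Dhx58 deviated by -0.46 and -0.28 and Ddx58 by 0.14 and 0.19. In the same hearts Ifih1 deviated by -0.07 and 0.42 and Zbp1 by 0.27 and -0.16.

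Neutrophil markers, and by their list mean also monocyte and macrophage markers, were high in the same hearts. The 13 measured neutrophil markers of 15 had a mean deviation of 0.85, 1.11, -0.05 and -0.51 on DJ-1 replicates 1 to 4, against -0.24, 0.84, -0.59 and -1.42 on placebo replicates 1 to 4, and Ltf was the only one at background. All 13 had a higher mean with DJ-1, with a median difference of 0.77 and 0 past adjusted p of 0.05. For 14 of 15 monocyte and macrophage markers the mean deviation was 0.18, 0.19, -0.11 and -0.11 on DJ-1 replicates 1 to 4, against -0.10, 0.17, 0.04 and -0.26 on placebo replicates 1 to 4, with 8 of the 14 having a higher mean with DJ-1 (median difference 0.04). Ccr2, a marker of recruited monocytes, was the only one of the 14 at background. The number of the 14 above their own mean was 11, 8, 5 and 4 on DJ-1 replicates 1 to 4. It was 5, 12, 9 and 2 on placebo replicates 1 to 4, so by count placebo replicate 3 exceeded DJ-1 replicate 2. The means of both lists and of the interferon-stimulated genes were above 0 in DJ-1 replicates 1 and 2 and placebo replicate 2. The part of these cells in the gene values was not tested. In bulk tissue fewer cells of a type and less RNA per cell cannot be told apart.

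By their list mean, lymphoid markers were highest in placebo replicates 3 and 2 and DJ-1 replicate 2. They were lowest in placebo replicate 1 and DJ-1 replicates 1 and 4. Of 13 T, B and NK cell markers 12 were measured and 6 were above background, among them Cd3e, Cd4 and Cd8a, while Cd3d, Ms4a1, Ncr1, Klrb1c, Gzma and Gzmb were not. Their mean deviation was -0.13, 0.10, 0.03 and -0.10 on DJ-1 replicates 1 to 4, against -0.14, 0.11, 0.13 and 0.01 on placebo replicates 1 to 4. The number of the 12 above their own mean was 4, 8, 9 and 3 on DJ-1 replicates 1 to 4. It was 5, 8, 8 and 6 on placebo replicates 1 to 4, so by count DJ-1 replicate 3 was highest. Plasmacytoid dendritic cells make much of the type I interferon in infection, and of their markers 5 of 6 were measured, with Ccr9 below background and Siglech at it (4.72 in DJ-1 and 4.80 in placebo hearts). The bright values of Cox6a2 in that list belong to a gene that cardiac muscle also expresses. Endothelial markers had mean deviations of 0.03, -0.03, -0.03 and -0.16 on DJ-1 replicates 1 to 4. On placebo replicates 1 to 4 the endothelial values were -0.08, 0.12, 0.09 and 0.06. Fibroblast markers had 0.03, -0.03, -0.13 and -0.08 on DJ-1 replicates 1 to 4, against -0.06, 0.15, 0.14 and -0.03 on placebo replicates 1 to 4. Of the 10 ventricular cardiomyocyte markers, the number above their own mean was 1, 0, 10 and 4 on DJ-1 replicates 1 to 4, against 7, 0, 4 and 9 on placebo replicates 1 to 4, with mean deviations of -0.12, -0.04, 0.08 and -0.04 on DJ-1 replicates 1 to 4, against 0.04, -0.05, 0.02 and 0.12 on placebo replicates 1 to 4. These markers were thus mostly below their mean in the hearts where most interferon-stimulated genes were above theirs, and the part of all these cells in the result was not tested.

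**Figure D4:**
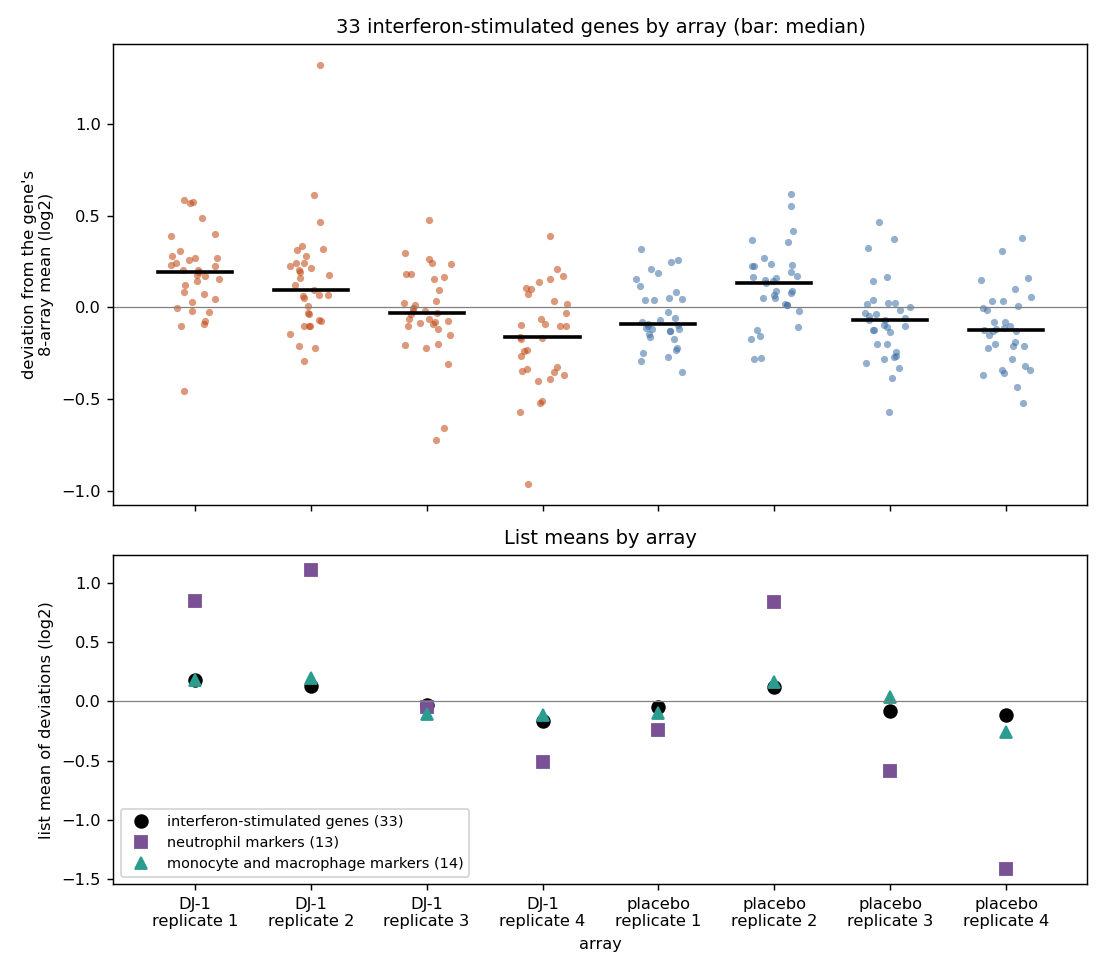
Upper panel: deviation of each of the 33 genes from its own 8-array mean (log2, vertical axis) on each array, DJ-1 hearts left and placebo hearts right, with the median as a bar. Lower panel: list means of the same deviations for the 33 genes, 13 neutrophil markers and 14 monocyte and macrophage markers. All 3 lists lie above 0 in DJ-1 replicates 1 and 2 and placebo replicate 2.

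Most interferon genes were at or below background. Of 16 measured ligand genes (21 listed), 5 were above background, and 0 passed an adjusted p of 0.05. Ifnb1, the type I interferon first made on infection, was at 3.86 ± 0.37 in DJ-1 hearts and 3.65 ± 0.26 in placebo hearts (SD, n = 4 each), below background. Ifng, the type II interferon of T and NK cells, was at 4.43 ± 0.12 in DJ-1 hearts and 4.33 ± 0.11 in placebo hearts (SD, n = 4 each), also below it. The smallest p-values of the list belonged to Ifna11 (difference -0.24, SE 0.10), lower in all 4 DJ-1 hearts at levels of 2.35 to 2.87, and Ifna9 (0.28, SE 0.12). Their means were below background, and both belong to a family of near-identical copies, so their values are uncertain (adjusted p = 0.824 for each).

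All 6 receptor genes were above background, with Ifnlr1 the lowest at a mean of 5.57, and 5 of 6 had a lower mean with DJ-1 without passing. Ifnar1, a chain of the type I receptor, was at 7.35 ± 0.16 in DJ-1 hearts and 7.52 ± 0.05 in placebo hearts (SD, n = 4 each), with a difference of -0.17 and a 95% interval of -0.38 to 0.05. Its partner Ifnar2 differed by -0.02, Il10rb, which the lambda interferon receptor shares, by -0.16, and the chains of the interferon gamma receptor by 0.07 for Ifngr1 and -0.08 for Ifngr2. Of the receptor kinases, Tyk2 was at 6.10, 6.03, 5.94 and 5.999 in DJ-1 replicates 1 to 4, against 6.09, 6.20, 6.36 and 6.36 in placebo replicates 1 to 4. The highest DJ-1 value lay just above the lowest placebo value, and the difference of -0.24 (SE 0.10, adjusted p = 0.824) did not pass. Jak1 differed by -0.08 (SE 0.11).

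Feedback inhibitors and inducers of interferon did not pass either (0 of 8 and 0 of 13). Socs1, which blocks the receptor kinases, differed by 0.09 (SE 0.15). The smallest p-values of the inhibitors belonged to Socs3, more a feedback gene of interleukin-6 signalling, with 8.86 ± 0.59 in DJ-1 hearts and 8.33 ± 0.52 in placebo hearts (SD, n = 4 each) and a difference of 0.53 (95% interval -0.12 to 1.18), and to Pias3 with -0.18. Among 13 measured genes of nucleic acid sensing and interferon induction, 9 had a higher mean, led by the kinase gene Ikbke with 0.22 (SE 0.12) and the Toll-like receptor adaptor gene Myd88 with 0.37 (SE 0.23).

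A further 46 interferon-induced genes were listed, of which 39 were measured, 21 with a higher and 18 with a lower mean with DJ-1 (median difference 0.00844, 0 past adjusted p of 0.05). An unadjusted p under 0.05 was reached by 4 of the 39, where 5.99% of all genes reached it. Ifi27l2a, a small interferon-induced membrane protein gene, was at 6.59, 6.44, 6.18 and 6.49 in DJ-1 replicates 1 to 4, against 6.59, 6.92, 6.78 and 6.72 in placebo replicates 1 to 4. All 4 DJ-1 hearts were below all placebo hearts, DJ-1 replicate 1 by less than the rounding, and the difference was -0.33 (SE 0.11, adjusted p = 0.824). Isg20, an RNA exonuclease gene, was at 8.48 ± 0.29 in DJ-1 hearts and 8.02 ± 0.33 in placebo hearts (SD, n = 4 each), a difference of 0.46 (SE 0.18). The other genes with an unadjusted p under 0.05, named here after their values were seen, were Ifi203, a DNA-binding family gene (-0.27, SE 0.11) and Ddx60, a helicase gene (-0.42, SE 0.18), both with a lower mean with DJ-1. On the arrays these 39 genes had mean deviations of 0.17, 0.15, -0.13 and -0.13 on DJ-1 replicates 1 to 4, against 0.05, 0.13, -0.08 and -0.15 on placebo replicates 1 to 4, again above 0 in DJ-1 replicates 1 and 2 and placebo replicate 2, and also slightly in placebo replicate 1.

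Genes of MHC class I antigen presentation, measured for 8 of 11, had 3 members with a higher and 5 with a lower mean with DJ-1, and 0 passed. The immunoproteasome gene Psmb8 differed by -0.25 (95% interval -0.66 to 0.17) and the class I transactivator gene Nlrc5 by 0.21 (95% interval -0.11 to 0.52). Nlrc5 had 19 probe sets, and this value is that of the highest-mean one alone. Their list mean stayed within -0.09 to 0.06 over all hearts.

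Genes with and without a response element core in their promoter window can be set side by side. The 12 measured genes with a core had a median difference of 0.11 (range -0.21 to 0.58), and 9 had a higher mean with DJ-1. The 12 measured genes whose windows held none had a median of 0.05 (range -0.13 to 0.19), and 9 had a higher mean. Cxcl10, Rsad2 and Ifih1, which had the differences farthest from 0 among these 24, all held a core, as was seen after the values were known. Of these, Ifih1 had a lower mean with DJ-1, and Mx2 (-0.22) had no window. The 6 measured genes with a gamma-activated core had a median difference of 0.06, and 6 had a higher mean. The 18 without one had a median of 0.07, and 12 had a higher mean. Whether either element goes with the difference was not tested.

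Without DJ-1 replicates 3 and 4 the picture depended on which placebo hearts were kept. The mean deviation of the 33 genes was -0.03 and -0.16 in these hearts, against 0.18 and 0.13 in DJ-1 replicates 1 and 2. Leaving out the lower hearts of 1 group alone raises the mean difference by construction, so the rise is no added evidence of an effect. With all 4 placebo hearts, 28 of the 33 genes had a higher mean in the 2 remaining DJ-1 hearts, the median difference was 0.20, and Irf9, Stat2, Rsad2 and Cxcl10 reached an unadjusted p under 0.05 (4.57% of all genes did), while 0 passed an adjusted p of 0.05. The difference turned positive for Oasl2 (0.20), Ddx58 (0.08), Ifit3 (0.08) and Parp9 (0.02), negative for Tap1 (-0.02), and Mx2 was at about 0. It was several times larger for Trim25 (0.30), Irf1 (0.45) and Ifit2 (0.35), and for Dhx58 it was -0.39. The 2 DJ-1 hearts did not overlap with the 4 placebo hearts for 6 genes (18.2%), where 13.1% of all genes showed this. With replicates 3 and 4 left out of both groups, an alternative chosen after seeing the data, the median was 0.12, 26 genes had a higher mean, and 1 gene (Cxcl10) reached an unadjusted p under 0.05, where 3.61% of all genes did.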

How the data were processed

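Log2 expression of 35556 probe sets on 8 Affymetrix whole-transcript arrays was used as deposited; the authors made these log2 values with RMA (robust multi-array average), as the submitters' processing notes state, and its version is not given in the sources used here. RMA usually subtracts background, sets all arrays to one distribution and pools probes into probe sets, which narrows whole-array differences. Per the labels' protocols, RNA had an integrity number above 7, and 100 ng was amplified and labelled. Symbols came from the platform annotation (21789 probe sets with 1 symbol, 1621 with several, 12146 with none); a gene is its probe set of highest mean. No column was left out.

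The 2 groups were compared by limma 3.58.1 (R 4.3.3, lmFit and eBayes, two-sided, no covariate) over 19938 genes, with Benjamini-Hochberg adjustment over all of them; the fitting code was tested on simulated data. Differences are DJ-1 minus placebo with SE or 95% interval. The labels number the samples without stating that each is another mouse, and they were taken as separate hearts. The p-values weigh the group difference against the spread between samples of a group, with each gene's variance moderated over all genes. The number of arrays limits precision. Values on all arrays are given for genes without overlap, with unadjusted p under 0.05, among the 8 of smallest p, the 4 of widest range or the 4 of highest mean; other pathway genes named are Ifnb1, Ifng, the type I and II receptor chains, Jak1, Tyk2 and Socs1, the 2 of smallest p per list, and any with unadjusted p under 0.05 and no overlap. Values in single hearts of Ifit1, Ifit2, Stat2, Cxcl9, Tyk2 and Ifi27l2a were chosen after they were seen. Promoter sequences are RefSeq's (GRCm38.p6). The members and lists were chosen with earlier results of these data known.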

Additional observations from a re-analysis of the deposited data

Results flagged for a closer look

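In 5 of 116 tested groups of 4 hearts (55 genes and 3 lists, each in both groups), 1 heart lay far from the other 3 by Dixon's gap test at its 95% critical value, where chance alone gives about 1 in 20. Among the interferon-stimulated genes, Oas2 in DJ-1 hearts was at 6.47 in DJ-1 replicate 4, against 6.93 to 7.00 in the other 3 DJ-1 hearts. Rtp4 in DJ-1 hearts was at 7.02 in DJ-1 replicate 1, against 6.52 to 6.59 in the other 3. Oas3 in placebo hearts was at 4.89 in placebo replicate 2, against 4.75 in each of the others. Of the pathway genes, Ikbke in DJ-1 hearts was at 5.33 in DJ-1 replicate 2, against 5.11 to 5.14 in the others. Psmb8 in placebo hearts was at 6.21 in placebo replicate 2, against 5.60 to 5.64 in the others.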

How the results depend on the processing

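Across 21 alternatives and 683 recomputed differences of single interferon-stimulated genes, 0 passed an adjusted p of 0.05 (0.651 to 1), 49 changed sign, and 17 of the 33 genes kept their sign throughout. The count with an unadjusted p under 0.05, which was 0, became 1 after quantile normalization, with cyclic loess, with an intensity trend and with array weights (Rsad2 each time), 1 without moderated variances (Oas3), and 0 to 2 with 1 array left out, where 4.18% to 7.42% of all genes reached it. It was 4 without DJ-1 replicates 3 and 4, and 1 with replicates 3 and 4 of both groups left out, a setting chosen after seeing the data. The count without overlap, also 0, was 0 to 3 with 1 array left out (5.07% to 7.54% of all genes), 6 without DJ-1 replicates 3 and 4 (13.1% of all genes), and 11 (where 30.8% of all genes did not overlap) with replicates 3 and 4 of both groups left out; fewer samples make non-overlap more frequent. Over all genes, 0 to 1 passed an adjusted p of 0.05 with 1 array left out (Pramel27, without DJ-1 replicate 3), and 1 with replicates 3 and 4 of both groups left out (Car3). With each array centred on its median, the median difference was 0.03 and 20 genes had a higher mean. With the replicate number as a block, 2 genes (Rsad2 and Cxcl10) had an unadjusted p under 0.05 and 0 genes passed the adjusted one; same-numbered hearts correlated at 0.00452 to 0.177 in their deviations, and not every heart correlated best with its own number, so the numbers were not taken as pairs. Zbp1, Oas3, Dhx58, Mx1 and Mx2 lie near or below background, which limits what the arrays can show for them.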
